A study of Mus musculus with 16 samples.

Results

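Ikzf2 and Nrp1 are a pair of genes whose products are widely used to mark regulatory T cells (Treg cells) that arose in the thymus, and the open chromatin around them in Treg cells of several tissues is described here. The members are the 96 open chromatin regions, of 75363 in the series' list, that overlap either of 2 windows of 240 kb on genome build mm9. The Ikzf2 window (chromosome 1, 69560000 to 69800000) held 55 regions and the Nrp1 window (chromosome 8, 130840000 to 131080000) held 41. The windows were chosen by gene position with the list already known, so the number of regions in them and their crowding are descriptions and were not tested. Which gene each window holds is taken from the rule that set the windows, since no gene annotation of mm9 was used.

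The assay was ATAC-seq: a transposase inserts sequencing adapters into DNA that nucleosomes leave exposed, so sequenced fragments pile up at accessible sites. The cells were CD4+CD25+ Treg cells of C57BL/6 mice, in 16 samples of 8 mice. The groups were visceral (epididymal) adipose tissue, injured hindlimb skeletal muscle and the Nrp1p and Nrp1n groups of colonic lamina propria, with 2 mice in each, and a spleen group matched to each of these with the spleens of the same mice. All groups shared the strain and the CD4+CD25+ label. The values analysed form 1 list for all 16 samples, with a position for each region and no value per sample, so no tissue was compared with its spleen, and the Nrp1p colon samples were not compared with the Nrp1n ones at the Nrp1 gene or elsewhere. Regions have no replicate error, read depth per sample is unknown, and the cell type label could not be checked against the levels of marker genes.

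Ikzf2 encodes Helios, a zinc finger transcription factor of the Ikaros family that most thymus-derived Treg cells express and that helps to keep their identity stable under inflammation. Nrp1 encodes neuropilin-1, a cell surface co-receptor for class 3 semaphorins and vascular endothelial growth factor, which on Treg cells also binds semaphorin 4A. In the gut, many Treg cells form outside the thymus in response to food and microbes, and low Nrp1 and low Helios are commonly used to recognise them, although neither marker is exact. Open chromatin regions are short stretches where transcription factors can reach DNA, and include promoters and enhancers.

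Both loci were rich in accessible regions, and the Ikzf2 locus was the richer. The Ikzf2 window had 2.29 regions per 10 kb and the Nrp1 window 1.71, which were 8.01 and 5.97 times the genome mean of 6.86 regions per 240 kb over chromosomes 1 to 19 and X. Regions took up 4.36% of the bases of the Ikzf2 window and 3.37% of those of the Nrp1 window. On a fixed grid of 10990 tiles of 240 kb, 8 tiles (0.0728%) held 55 regions or more and 104 tiles (0.946%) held 41 or more. The median tile held 2 regions and 4750 tiles held none.

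A window laid over a gene can sit better on a crowded stretch than a tile of a fixed grid, so the grid's own tiles were read as well. The tile that covered most of the Ikzf2 window (chromosome 1, 69600001 to 69840000) held 58 regions, and only 1 other tile of the genome held as many, with 68. The other tile that overlapped this window held 19 regions, a count that 13.1% of all tiles reached. The Nrp1 window fell across the border of tiles with 26 and 28 regions, counts that 6.56% and 5.36% of all tiles reached. With the grid moved by 120 kb, the tiles that overlapped the Ikzf2 window held 46 and 27 regions (reached by 0.392% and 5.81% of tiles). Those that overlapped the Nrp1 window held 22 and 31 (9.89% and 3.75%). For both loci the count of a tile thus depended on where its borders fell, and only for Ikzf2 did a tile of the fixed grid reach the count of the window.

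**Figure D1:**
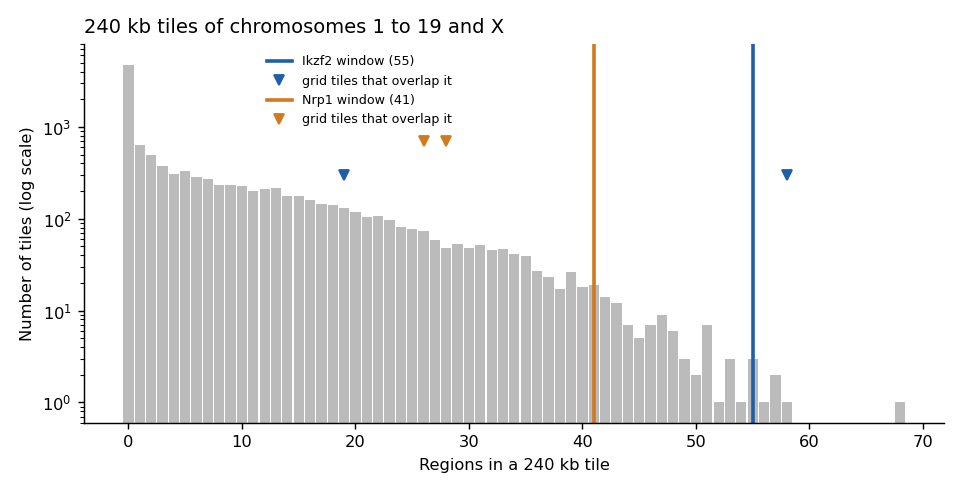
Number of 240 kb tiles (vertical axis, log scale) by the number of regions they held (horizontal axis), over chromosomes 1 to 19 and X. Lines mark the Ikzf2 window (55) and the Nrp1 window (41), and triangles the grid tiles that overlap each (19 and 58 for Ikzf2, 26 and 28 for Nrp1).

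The Ikzf2 regions belonged to a dense run with long empty stretches on both sides. Joined across gaps under 1 Mb, the run held 85 regions over 684 kb (69194349 to 69877862), of which 55 lay in the window. No region was listed for 2003.5 kb before this run or for 1169.1 kb after it. Gaps of 1 Mb or more made up 0.531% of all gaps between neighbours (400 of 75336). Runs joined in this way end at such gaps by construction, and the 420 runs of the genome had a median of 85 regions, so neither the flanking gaps nor the size set the Ikzf2 run apart. It held 12.4 regions per 100 kb, against a median of 4.65 over the 261 such runs with 50 regions or more, and it was the densest of them. This rank was chosen for display after the values were seen and moved with the settings: it was 3rd of 328 runs with 20 regions or more, and 10th of 511 when runs were cut at 500 kb. In the gene order of the RefSeq table, which is of another assembly (GRCm38.p6) and served for names only, the protein-coding neighbours of Ikzf2 are Erbb4, a receptor tyrosine kinase, and Spag16, a component of the sperm tail, and the nearest entries of any kind are the long non-coding RNAs Gm28497 and Gm29822.

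The flanks of both windows held far fewer regions than the windows. The Ikzf2 window had 14 regions in the 240 kb before it and 12 in the 240 kb after it, and the Nrp1 window had 10 and 13. The windows thus held 4.23 (Ikzf2) and 3.57 (Nrp1) times the mean of their own flanks. Within 1 Mb before the window there were 18 regions for Ikzf2 and 33 for Nrp1. After the Nrp1 window the list of chromosome 8 ended with a region at 131233277 to 131233448, which lay 153 kb past the window. No count within 1 Mb was thus made on that side. Part of the 240 kb flank there, which enters the ratio of 3.57, lay past the last listed region. The protein-coding neighbours of Nrp1 in the same table are Pard3, a cell polarity protein, and Itgb1, the integrin beta-1 chain, and the nearest entries are the long non-coding RNA A930035F09Rik and the pseudogene Gm9204.

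**Figure D2:**
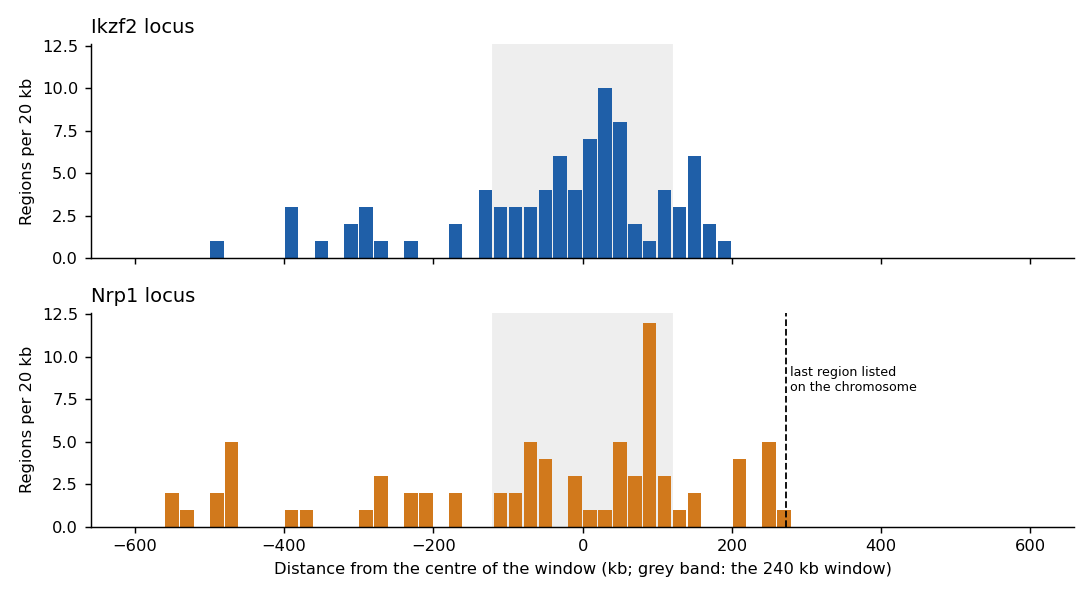
Regions per 20 kb (vertical axis) by distance from the centre of each window (horizontal axis, kb) for the Ikzf2 locus (top) and the Nrp1 locus (bottom); the grey band is the 240 kb window. The Ikzf2 regions rise to 10 per 20 kb near the centre and stop about 200 kb past it, whereas the Nrp1 regions have 1 peak of 12 per 20 kb toward the end of the window and go on to the last region listed on the chromosome.

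Inside the windows the regions were laid out differently. At Ikzf2 they filled the locus and were most frequent just past its middle: its 4 successive stretches of 60 kb held 9, 14, 25 and 7 regions. At Nrp1 these stretches held 9, 7, 7 and 18 regions. The fullest stretch had a similar share at both loci, 45.5% at Ikzf2 and 43.9% at Nrp1, where it was the last one. Of 24 bins of 10 kb, 20 held a region at Ikzf2 and 15 at Nrp1. The fullest bin held 6 regions at Ikzf2 (69700000 to 69710000) and 8 at Nrp1 (131040000 to 131050000).

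Linked across gaps under 12500 bp, 42 of the 55 Ikzf2 regions formed 1 cluster of 137 kb (69625558 to 69762930). It ranked 5th by number of regions among 1193 clusters of 10 or more regions. The remaining Ikzf2 regions fell into a group of 8 over 29.2 kb before it (69577430 to 69606599) and the parts of 2 further groups that crossed the window's edges. The 41 Nrp1 regions fell into 7 groups. The largest had 21 regions over 62.0 kb (130997877 to 131059858) and ranked 158th, and the others had between 1 and 7. The Ikzf2 cluster had 3.06 regions per 10 kb and the Nrp1 cluster 3.39, against a median of 3.12 over the 210 clusters of 20 or more regions. The Ikzf2 cluster thus stood out by its number of regions and not by how tightly they were packed.

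**Figure D3:**
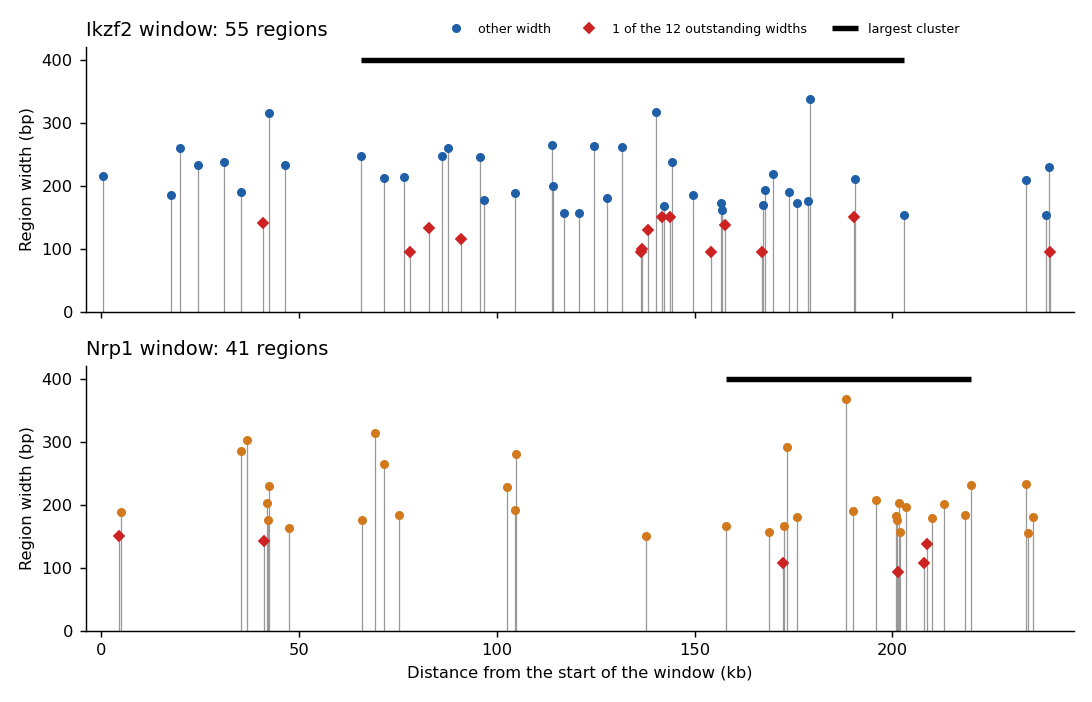
Each open chromatin region as a stem at its distance from the start of the window (horizontal axis, kb), with its width (vertical axis, bp), in the Ikzf2 window (top, 55 regions) and the Nrp1 window (bottom, 41 regions). Black bars span the largest cluster of each window (42 and 21 regions), and red diamonds mark the 14 and 6 regions that have 1 of the 12 outstanding widths, exact widths over-represented in the whole list.

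Neighbouring regions were a few kilobases apart at both loci. The median gap was 3068.5 bp between the 55 Ikzf2 regions (54 gaps) and 1912 bp between the 41 Nrp1 regions (40 gaps), against 5200.5 bp over the whole list. The Ikzf2 gaps were the more even: their interquartile range was 1267 to 4769 bp, their SD was 1.27 times their mean, and 53.7% of them were between 1 and 5 kb, against 42.5% at Nrp1 and 20.5% in the whole list. At Nrp1 the interquartile range was 460 to 4955 bp and the SD was 1.54 times the mean. Gaps under 12500 bp made up 94.4% of those at Ikzf2 and 85.0% of those at Nrp1, against 68.1% of all gaps. The mean gap was 4242.6 bp at Ikzf2, 5575.7 bp at Nrp1 and 33818.7 bp in the list. The differences from the list thus also reflect the density of the windows and are not a separate trait of spacing. Among the 10 clusters with the most regions, whose gaps are all under 12500 bp, the median gap was between 1510 and 2634 bp. The Ikzf2 cluster had the longest of these, 2634 bp, and the Nrp1 cluster had 1497 bp.

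Gaps under 500 bp took a share close to that of the list at large. Each window had 10 gaps under 500 bp, which was 18.5% at Ikzf2 (exact binomial 95% interval 9.25 to 31.4%) and 25% at Nrp1 (12.7 to 41.2%), against 22.2% of all gaps. These intervals take gaps as independent and cover counting error only, and they overlap each other and hold the value of the list. Over the 210 clusters of 20 or more regions, the median of this share was 25%. The shares of the windows and the list moved with the settings. With only regions of median width or more kept, they were 4.35% at Ikzf2, 13% at Nrp1 and 10.1% in the whole list. Without the regions of these 12 over-represented widths, they were 10% at Ikzf2, 20.6% at Nrp1 and 16.7% in the whole list. With both window edges moved in by 50 kb, they were 21.1% at Ikzf2 and 13.3% at Nrp1. For gaps under 100 bp the share at Nrp1, 5 of 40, was above that of the list (5.81%). At Ikzf2 it was 3 of 54 (5.56%). These counts are small, and no interval was computed for them.

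**Figure D4:**
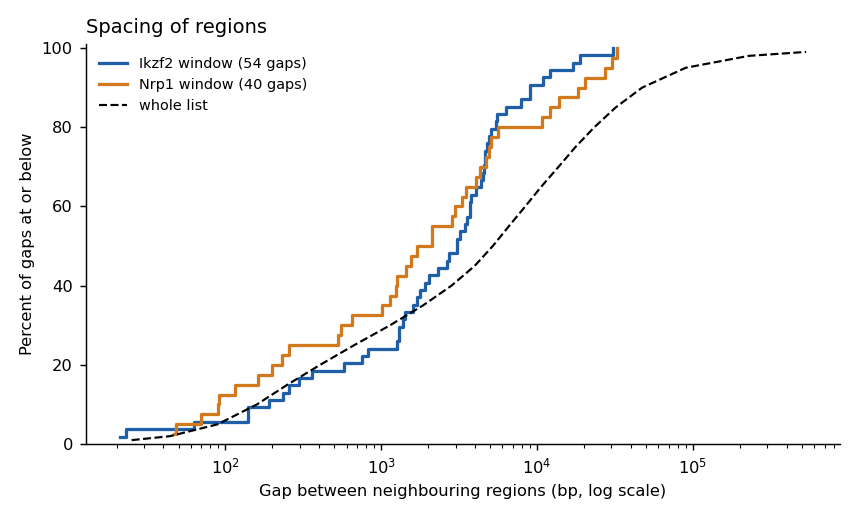
Percent of gaps at or below a given length (vertical axis) by gap length in base pairs (horizontal axis, log scale) for the Ikzf2 window (54 gaps), the Nrp1 window (40 gaps) and the whole list (dashed). The Ikzf2 curve is steepest between 1 and 5 kb, where 53.7% of its gaps lie; both curves lie left of the list above about 2 kb.

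The longest stretch without a region was about 30 kb at both loci. At Ikzf2 the longest was 30.7 kb (69762931 to 69793609), just past the large cluster, and the next were 18958 bp (69606600 to 69625557) and 16967 bp (69560463 to 69577429). At Nrp1 the 3 longest gaps were 32.4 kb (130945079 to 130977490), 30.2 kb (130844964 to 130875183) and 27.2 kb (130915313 to 130942473), and all lay before the largest cluster. Gaps of 10 kb or more numbered 5 of 54 at Ikzf2 (9.26%) and 8 of 40 at Nrp1 (20%), against 36.3% of all gaps.

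Of the 2 windows, the Nrp1 window held the sites with the most regions. With regions under 1000 bp apart taken as 1 site, the Ikzf2 window had 42 sites and the Nrp1 window 28. Gaps under 1000 bp made up 24.1% of those at Ikzf2 and 32.5% of those at Nrp1, against 28.7% of all gaps. How often sites of 4 or 5 regions occur in the whole list was not counted. At Ikzf2 no site had more than 3 regions inside the window. Its smallest gaps were 21 bp (69716590 to 69716944, centres 188 bp apart), 23 bp (69673786 to 69674273, centres 256 bp apart) and 63 bp (69750251 to 69750673, centres 243 bp apart). An Nrp1 site (131040818 to 131041929, 1112 bp) held 5 regions, 182, 175, 94, 203 and 156 bp wide. The gaps between them were 48, 91, 116 and 47 bp, and their centres lay 226, 226, 264 and 226 bp apart. A second Nrp1 site (130881095 to 130882531, 1437 bp) held 4 regions of 142, 202, 176 and 229 bp, whose last 3 were separated by 70 and 89 bp. Whether such neighbours are separate elements or pieces of 1 open site cut apart by the caller was not tested.

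The promoter of Nrp1 is shown as the regulatory sequence of this pair of genes that was at hand; it is the stretch where transcription of this marker starts. It is a RefSeq sequence of the plus strand of build GRCm38.p6 (chr8:128358823-128359122, 250 bases before to 50 bases after the gene start), 5′ to 3′. The table held it for 1 of the 2 genes. As the list is on mm9, the sequence could not be placed against any of the 41 regions.
Nrp1 promoter: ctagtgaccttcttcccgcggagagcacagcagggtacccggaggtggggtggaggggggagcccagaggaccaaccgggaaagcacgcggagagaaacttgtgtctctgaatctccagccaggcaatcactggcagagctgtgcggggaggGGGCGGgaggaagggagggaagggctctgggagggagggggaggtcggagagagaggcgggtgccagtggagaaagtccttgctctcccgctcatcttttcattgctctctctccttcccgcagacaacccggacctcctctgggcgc
The capitals mark the only match to 6 short motifs searched on both strands, an Sp1 motif (GGGCGG) at base 153, which 35.7% of the 32851 supplied promoters of this length also hold. The motifs of Runx (TGTGGT, in 16.8% of promoters), Ets (GGAAGT, 23.8%), AP-1 (TGANTCA, 7.81%), CRE (TGACGTCA, 1.79%) and forkhead factors (TGTTTAC, 3.65%) had no match in these letters. The promoter had 64.0% G and C, against a median of 52.7%, and 14 CpG dinucleotides, against a median of 7. Its ratio of observed to expected CpG was 0.474, against a median of 0.384, and 43.6% of the promoters reached that ratio.

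Most regions of both loci had the width of the list at large. The median width was 185 bp at Ikzf2 (95% interval 168 to 212 bp, from binomial ranks) and 183 bp at Nrp1 (175 to 202 bp), against 191 bp over all regions. Widths of 150 to 250 bp made up 65.5% of the Ikzf2 regions and 70.7% of the Nrp1 regions, against 74.4% of all. Each window had 3 regions of 300 bp or more, which was 5.45% at Ikzf2 and 7.32% at Nrp1, against 6.32% of all.

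The widest region of the Ikzf2 window was 338 bp (69738970 to 69739307) and lay in the large cluster. It was followed by regions of 317 bp (69700045 to 69700361), 316 bp (69602338 to 69602653), 265 bp (69673786 to 69674050) and 263 bp (69684472 to 69684734). The widest region of the Nrp1 window was 367 bp (131028009 to 131028375), also in its largest cluster. The next were 314 bp (130908908 to 130909221), 303 bp (130876725 to 130877027), 292 bp (131013295 to 131013586) and 285 bp (130875184 to 130875468). In the list, the 99th percentile of width was 399 bp and the widest region had 828 bp, a maximum over far more regions than the windows hold.

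Narrow regions of fixed width took a larger share at Ikzf2 than at Nrp1 or in the list, as a description of a width class added after the values were seen. In the whole list, 12 exact widths from 94 to 150 bp hold far more regions than the widths beside them, and together hold 14.2% of all regions. In the Ikzf2 window 14 of 55 regions (25.5%, exact binomial 95% interval 14.7 to 39.0%) had such a width, and in the Nrp1 window 6 of 41 (14.6%, 5.57 to 29.2%). The intervals overlap each other. They cover counting error only and take regions as independent, which neighbouring regions are not, so nothing is read from their bounds. With both window edges moved in by 50 kb the shares were 28.2% at Ikzf2 and 6.25% at Nrp1. Of the 14 Ikzf2 regions 5 were exactly 94 bp wide, the narrowest width in the list (9.09%, against 2.44% at Nrp1 and 1.79% of all regions), and 3 were exactly 150 bp wide (5.45%, against 5.57% of all regions).

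Of the 14 narrow Ikzf2 regions 12 lay in the large cluster, which held 42 of all 55 regions of the window. They made up 28.6% of the cluster. The share was 19% in the Nrp1 cluster, and over the 210 clusters of 20 or more regions it had a median of 14.3% and an interquartile range of 9.76 to 19.4%. In 11 of the 210 clusters, the Ikzf2 cluster among them, it was as high as at Ikzf2. Among the 10 clusters with the most regions, the share was above that of the Ikzf2 cluster in 1, of 39 regions on chromosome 8 (84254233 to 84348327, 30.8%), and lowest in a cluster of 39 regions on chromosome 17 (35301924 to 35412001, 5.13%). Of the Ikzf2 regions of such a width 7 of 14 had a neighbour under 500 bp away, against 13 of 41 of the other Ikzf2 regions; the whole list had 52.9% and 36.3%. What sets these widths is not given in the sources used here, and their part in the region counts was measured by leaving them out of the whole list. The Ikzf2 window then held 41 regions and the Nrp1 window 35, which were 6.96 and 5.95 times the list's mean of 5.89 per 240 kb, against 8.01 and 5.97 times with all regions.

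**Figure D5:**
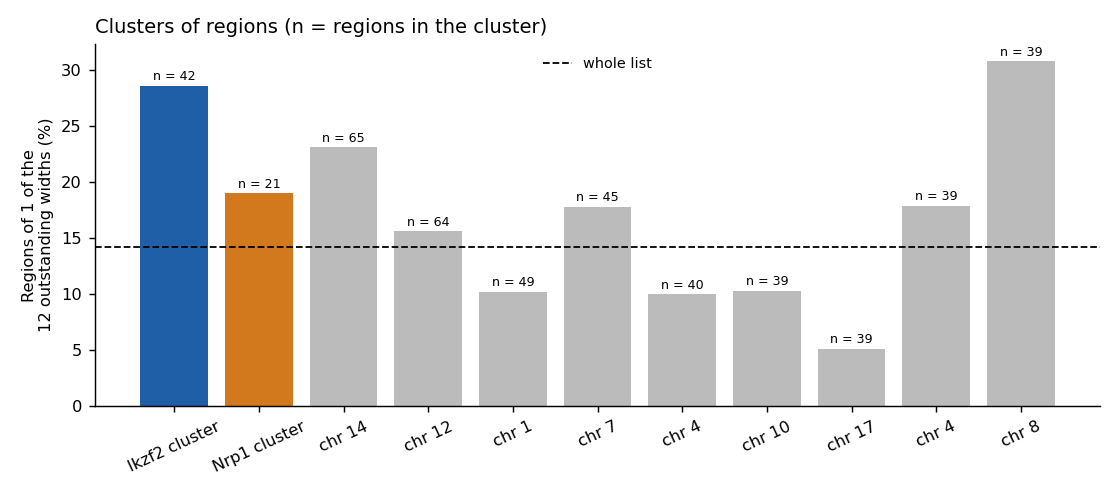
Percent of regions with 1 of the 12 outstanding widths (vertical axis) in the largest Ikzf2 cluster (28.6%), the largest Nrp1 cluster (19%) and, in grey, the other 9 of the 10 clusters with the most regions, named by chromosome. The dashed line is the whole list (14.2%).

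Regions lay close to both window edges at Ikzf2, whereas at Nrp1 the edges fell in wider gaps. The first Ikzf2 region inside (69560247 to 69560462, 216 bp) lay 247 bp past the window's start, and a region just outside (69559744 to 69559893, 150 bp) ended 107 bp before it. At the other end a region of 94 bp (69799724 to 69799817) was the last inside, and the next, of 171 bp (69800664 to 69800834), began 664 bp past the edge as part of a group of 13 regions that ran on to 69837098. The first and last Nrp1 regions (130844462 to 130844611, 150 bp, and 131075388 to 131075568, 181 bp) lay 4462 and 4432 bp inside. The nearest regions outside the Nrp1 window were 47271 bp before it (130792471 to 130792729, 259 bp) and 16310 bp after it (131096310 to 131096554, 245 bp). Linked across gaps under 25 kb, the largest Nrp1 run crossed the window's end to 131119192, with 25 of its 28 regions inside. With both edges moved out by 50 kb the windows held 69 and 46 regions, and with both moved in by 50 kb they held 39 and 16.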

How the data were processed

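ATAC-seq was done on 16 Treg cell samples of 8 mice in 8 groups, taken from the sample titles. The deposited file is 1 list of region positions for the whole series, with a chromosome and other columns for start and end, per the file header. It has no score, count or signal for any region and no column per sample. In the submitters' processing notes, mm9 is the build, and the tools are HOMER 4.6, Bowtie2 2.2.4, cutadapt 1.8.3, Picard 1.130 and SAMtools 1.3. How regions were called, pooled and filtered, and whether cut sites were shifted, is not stated there; these steps decide what is listed and how it is split.

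Positions are 1-based. A region belonged to a window if it overlapped it by 1 bp or more. Gaps were counted between neighbours inside a window, and for the whole list on chromosomes 1 to 19 and X. Clusters linked gaps under 12500 bp. Tiles of 240 kb started at base 1. A width was outstanding if over 5 times as many regions had it as had the median of the widths up to 8 bp away (at least 10). Positions named in the text were, by rule, the ends, widest, narrowest, closest and farthest regions of each window. Windows, lists and measures were chosen with earlier results of these data known; the outstanding widths, tiles moved by 120 kb and runs of regions joined across long gaps were added after the values were seen. No test was run, as regions of 1 locus are not replicates. Functions were tested on simulated data. Python 3.11.15, NumPy 2.4.6, SciPy 1.17.1 and Matplotlib 3.10.9 were used.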

Additional observations from a re-analysis of the deposited data

How the results depend on the processing

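No paired analysis was possible because the file has no column for a sample, and no replicate could therefore be omitted. The Ikzf2 window held more regions than the Nrp1 window under all 7 alternatives, and its largest cluster was larger under all 5. A limit at the list's median width left 24 regions at Ikzf2 and 17 at Nrp1, largest clusters of 7 and 6, and 4.35% and 13% of gaps under 500 bp; fewer regions follow from that choice. Moving both edges in by 50 kb left 39 regions at Ikzf2 and 16 at Nrp1, and part of this drop follows from the shorter windows. Links of 5 kb gave largest clusters of 15 and 11 regions. Merging regions under 500 bp apart raised the median width to 219 bp at Ikzf2. The order of the 2 windows changed for the median width in 1 of 4 alternatives and for gaps under 500 bp in 1 of 4. The density rank of the Ikzf2 run was 10, 4 and 3 with links of 500 kb and minimums of 20, 50 and 80 regions, and 3 with links of 1000 kb and a minimum of 20. Of 55 alternatives 14 moved a count by over 1.5 times or took another value outside its counting interval. These intervals are wide: values that stayed inside include 10% of gaps under 500 bp at Ikzf2 without the outstanding widths, and, with the edges moved in, 13.3% of gaps and 6.25% of outstanding widths at Nrp1. Unknown depth limits the list: where no region is listed, none was called, and the DNA was not shown to be closed.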
